A study of Zea mays with 6 samples.

Results

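The guide strands of miR159 and the MYB genes listed as cut at their sites were followed in maize ovaries. The ovaries had incompletely fused carpels (IFC) or completely fused carpels (CFC). The guides were taken by name: every known miRNA named miR159 whose arm was not 5p, which gave 4 of 161 names. The genes were those of the degradome table, in lines of a miR159 or miR319 name, that were classed as MYB or annotated with a myb domain. These were 4 of 113 genes, with 8 transcripts and 8 gene sites of 132. The study compared both ovary phenotypes within 1 inbred line, Yu-A474, part of whose ovaries fail to close the carpel wall. Ovaries were collected at silking, before pollination, from unstressed field plants, and no transgene or treatment separated the groups. IFC ovaries came from the same ears as the CFC ovaries, which the sample labels call wild-type (WT). There were 4 small RNA libraries, 2 of each phenotype from different ear rows, and 2 degradome libraries, 1 for each phenotype, in which RNA of both replicates was pooled. In whole-ovary RNA, fewer cells of a type and less RNA per cell cannot be told apart.

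miR159 is an old land plant miRNA family. Its guide strand pairs with a conserved site in mRNAs of GAMYB-like MYB transcription factors, which act in gibberellin responses and, in the anthers and seeds of Arabidopsis and cereals, in tapetum and aleurone function. The Argonaute protein holding the guide cuts the paired mRNA opposite guide bases 10 and 11, and the 3′ piece keeps a free 5′ end that a degradome library can capture. miR319 is the sister family. It is nearly the same in sequence, and its best known targets are TCP transcription factors, which set the balance of cell division and differentiation in leaves and flowers.

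The guides are shown first because the position of a cut depends on the base at which the guide begins. Sequences are written as DNA, as deposited, and capitals mark the seed, bases 2 to 8. The miR159 guides read:
zma-miR159c-3p_L-1R-1: tTGGATTGaagggagctcc
zma-miR159e-3p_L-1R-1_1ss6TC: tTGGCTTGaagggagctcc
zma-miR159a-3p: tTTGGATTgaagggagctctg
osa-miR159c_L+1R-1_1ss2AC: cCTTGGATtgaagggagctcc
zma-miR159h-3p: tTTGGAGTgaagggagctctg

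The last of these is named in the degradome table alone, and its level in the small RNA libraries was not analysed here. The miR319 guides, given for comparison, read:
zma-miR319a-3p_R+1: tTGGACTGaagggtgctccct
tae-miR319: tTGGACTGaagggagctccct
osa-miR319a-3p.2-3p_R+2_1ss14TA: tTGGACTGaagggagctccctt

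No seed was shared by any pair of the 4 expressed miR159 guides, whereas the 3 miR319 guides share 1 seed. The miR159c guide lacks the first base of the miR159a guide, and over its 19 bases the only difference is C19T, counted from the 5′ end of miR159c. Against zma-miR319a-3p_R+1 it differs by T6C and A14T, and against tae-miR319 by T6C alone. The miR159e guide departs from miR159c by A5C, and the miR159h guide from miR159a by T7G. The osa-miR159c read holds the whole miR159c guide behind 2 further 5′ bases.

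The suffix L-1 in the deposited names means that the read is 1 base shorter on the left than the registered miRNA. The registered forms given beside the reads, with the seed again in capitals, are these:
registered miR159c-3p: cTTGGATTgaagggagctcct
registered miR159e-3p: aTTGGTTTgaagggagctcca
All 4 registered miR159 forms begin at the base where miR159a begins, and the registered miR319 forms begin 1 base later. The 19-base reads listed for miR159c and miR159e therefore start where miR319 starts, not where their registered forms do. The file states that the sequence shown is 1 read from a cluster, so the level given under a name may cover reads with other ends.

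The hairpins listed for the most abundant pair of guides show where each guide lies, with the guide in capitals. Both are on chromosome 3, minus strand, and the coordinates are those of the deposited table, whose genome build is not given in the sources used here. The miR159c hairpin, at chr3:2748141-2748337, is 197 bases long and holds the guide at bases 179 to 197.
miR159c hairpin: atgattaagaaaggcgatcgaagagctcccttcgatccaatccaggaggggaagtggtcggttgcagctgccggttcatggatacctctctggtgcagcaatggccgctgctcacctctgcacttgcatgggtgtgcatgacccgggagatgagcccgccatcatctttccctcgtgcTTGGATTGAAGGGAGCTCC
The hairpin listed with the miR159a read, at chr3:25492248-25492462, is 215 bases long and holds the guide at bases 194 to 214.
miR159a hairpin: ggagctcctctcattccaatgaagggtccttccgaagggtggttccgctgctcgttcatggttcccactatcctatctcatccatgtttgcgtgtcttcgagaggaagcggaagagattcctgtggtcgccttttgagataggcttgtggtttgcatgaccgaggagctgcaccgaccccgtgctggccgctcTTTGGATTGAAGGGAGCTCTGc
The hairpin listed for osa-miR159c shares 178 bases in a row with that of miR159c, although the table places it at chr3:2747984-2748163, an interval that overlaps the other by 23 bases. Both reads can thus come from 1 hairpin, and the 2 positions are given only as listed. The osa-miR159c read has 1 mismatch to its hairpin, C1G, with the read's base first. The miR159e read, listed at chr1:246091075-246091201 on the minus strand, likewise has 1, C5T. In RefSeq's annotation of maize, 9 loci are named MIR159, of which 6 lie on chromosome 8, 2 on chromosome 3 and 1 on chromosome 1. MIR159a is among those on chromosome 8, and those on chromosome 3 are MIR159c and MIR159f. The hairpin listed with the miR159a read is on chromosome 3, so it is headed here by the name of the read and not of a locus. Because the loci give near-identical guides, the deposited levels belong to a sequence name and not to a single locus.

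miR159 was abundant in all 4 libraries, and nearly all of it was miR159c and miR159a. Normalized expression (NE) is the reads of a miRNA scaled by the authors to the size of its library (RPM). Added up, the miR159 guides reached 2123 and 554 in CFC and 620 and 621 in IFC. CFC replicate 1 was therefore 3 to 4 times as high as the rest, while CFC replicate 2 lay below both IFC libraries. The pair of miR159c and miR159a supplied 99.6 to 99.8% of this sum in every library. The sum made up 7.54% of all known miRNA NE in CFC replicate 1 and 1.96, 3.22 and 2.34% in CFC replicate 2, IFC replicate 1 and IFC replicate 2.

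The miR159c guide had an NE of 1469 and 387 in CFC and 446 and 496 in IFC. It ranked 5th, 14th, 12th and 11th among the known miRNAs of these libraries, in the same order. The mean was 928 ± 765 in CFC and 471 ± 35.2 in IFC (SD, n = 2 libraries each). On the log2(NE + 1) scale IFC was lower by -0.68 (SE 0.85, 95% interval -2.48 to 1.12, limma adjusted p = 0.999). The groups overlapped, with CFC replicate 2 the lowest of the 4 libraries. The phenotypes are those named in the column headers of the deposited table. The study's own list of differing miRNAs gives these means with the phenotypes exchanged, so that this guide is higher in IFC. The difference would then change sign. For miR159a that list assigns the phenotypes as here.

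The miR159a guide had an NE of 647 and 165 in CFC and 171 and 124 in IFC. Only CFC replicate 1 stood apart, and CFC replicate 2 fell between the IFC libraries. The means were 406 ± 341 in CFC and 147 ± 33.6 in IFC (SD, n = 2 each), and the log2 difference was -1.16 (SE 0.85, 95% interval -2.98 to 0.65, limma adjusted p = 0.999).

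The remaining guides were near the limit of detection, where 3 reads correspond to an NE of 2.15 to 3.44. This takes the commonest NE value under 2 in a library as 1 read. The osa-miR159c read had an NE of 6.81 and 0.879 in CFC and 0 and 1.67 in IFC, so only CFC replicate 1 was above 3 reads (log2 difference -1.23, SE 0.89, limma adjusted p = 0.999). Leaving out CFC replicate 1 gave a log2 difference of -0.20, CFC replicate 2 one of -2.26, IFC replicate 1 one of -0.52 and IFC replicate 2 one of -1.94. The miR159e read was seen only in IFC replicate 1, at an NE of 2.29 or 2 reads, and a count of 0 in the other libraries allows up to 3 reads each.

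**Figure D1:**
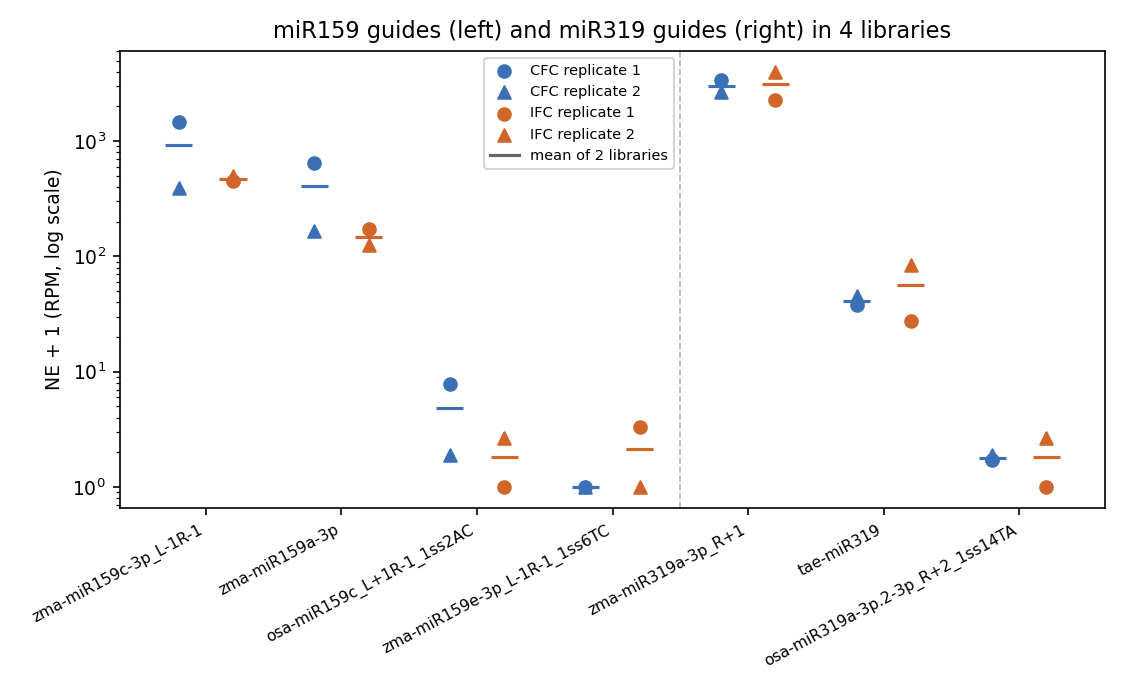
NE + 1 (RPM, log scale) of the 4 miR159 guides and the 3 miR319 guides in the CFC (blue) and IFC (orange) libraries. Circles are replicate 1, triangles replicate 2 and lines the mean of 2 libraries. For miR159c and miR159a the CFC replicate 1 circle lies alone above the other 3 points.

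None of the 4 guides passed the test, as was so for 0 of all 145 known miRNAs tested (0%, limma with Benjamini-Hochberg adjustment). Without adjustment, 1 known miRNA (0.69%) had a p under 0.05, and it was not a miR159 guide. Of the guides, 3 had a lower and 1 a higher mean in IFC, with a median log2 difference of -0.92. Over all 145 there were 74 lower and 71 higher, with a median of -0.02. Both IFC libraries lay below both CFC libraries for 14.5% of the miRNAs tested, and the groups were apart in either direction for 22.8%, in neither case with a miR159 guide among them.

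The difference between the means rested on CFC replicate 1, which was 2.96 times as high as any other library for miR159c and 3.78 times for miR159a. This library was more than 2 times as high as every other for 21 of the 145 known miRNAs (14.5%). Over the 145, its log2(NE + 1) values departed from the mean of the other libraries with an SD of 1.21. For CFC replicate 2 and the IFC libraries, the same measure was 0.780 to 0.872. Without CFC replicate 1, the log2 difference of miR159c turned to 0.28, that of miR159a shrank to -0.18 and that of the sum turned to 0.16. Without CFC replicate 2, they were -1.64, -2.15 and -1.77. Each of these comparisons leaves 1 CFC library. The families miR2118 and miR2275 trigger phasiRNAs in anthers and served as markers of another floral tissue. Their 7 names, zma-miR2275b-5p included, summed to an NE of 43.4 and 19.3 in CFC and 33.2 and 49.4 in IFC. Of these names, 3 had an NE above 1 in every library. The part of these families in the result was not tested.

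**Figure D2:**
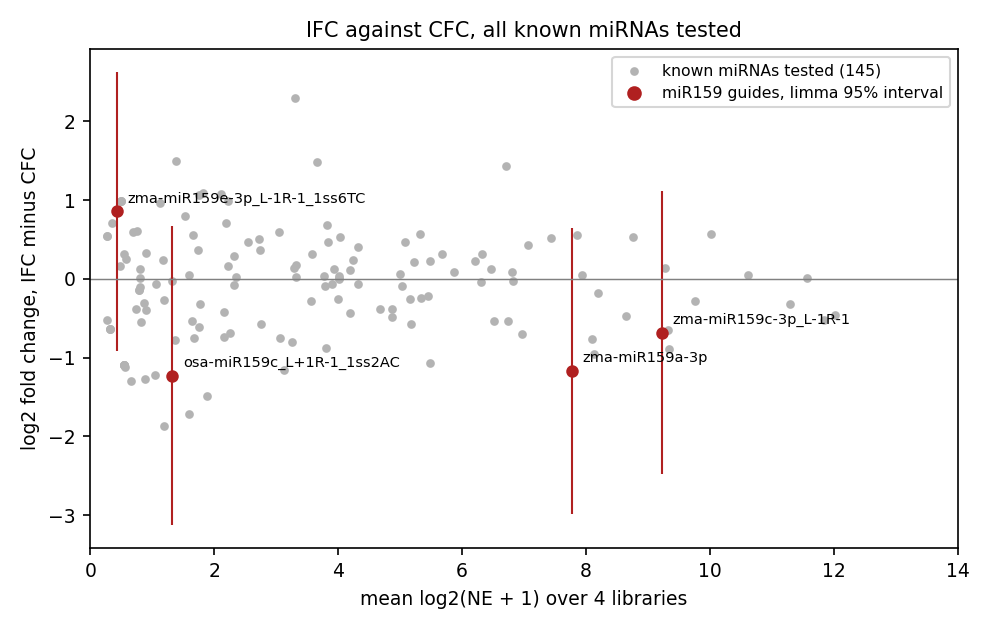
Log2 fold change, IFC minus CFC, against the mean log2(NE + 1) over the 4 libraries for the 145 known miRNAs tested (grey) and the miR159 guides among them (red, with limma 95% intervals). All 4 red intervals include 0.

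The sister family had another order of libraries. The summed miR319 guides had an NE of 3439 and 2708 in CFC and 2306 and 4100 in IFC, with a log2 difference of 0.01. Nearly all of it was zma-miR319a-3p_R+1, at 3402 and 2664 in CFC and 2280 and 4014 in IFC. Here the highest library was IFC replicate 2, not CFC replicate 1. The ratio of summed miR159 to summed miR319 guides within a library, which does not depend on the library total, was 0.617 and 0.204 in CFC and 0.269 and 0.152 in IFC. The log2 difference was -0.82 (exact permutation test, two-sided, p = 0.667, where 2 against 2 cannot go below 0.333), and without CFC replicate 1 it was -0.02. miR159 thus supplied 38.2, 17.0, 21.2 and 13.2% of the guides of both families, in the order CFC replicates 1 and 2 and IFC replicates 1 and 2.

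**Figure D3:**
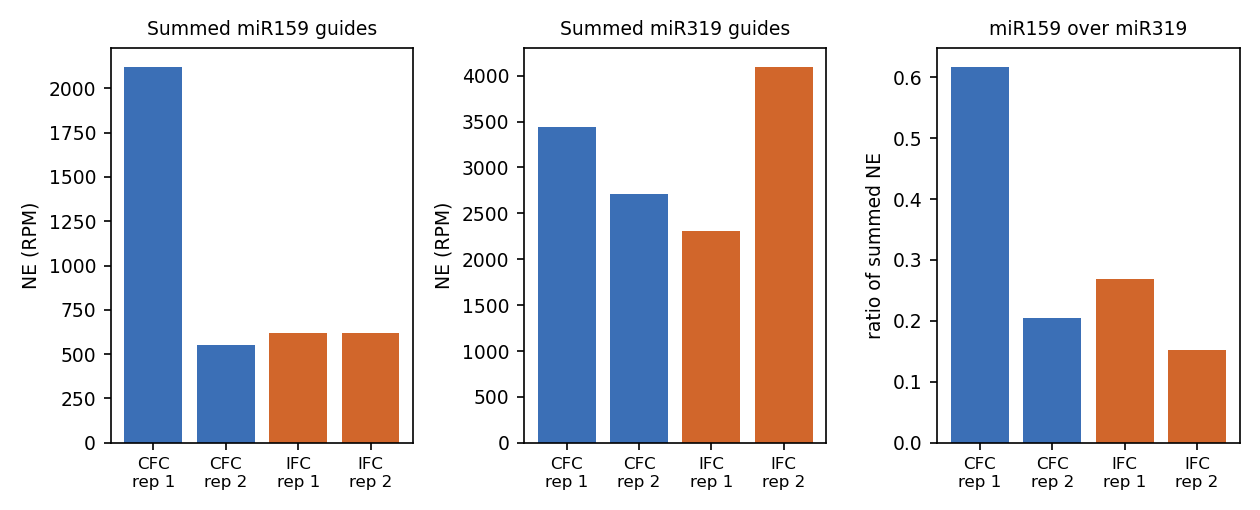
NE (RPM) of the summed miR159 guides, of the summed miR319 guides, and the ratio of these sums, in each CFC (blue) and IFC (orange) library. The miR159 sum is 2123 in CFC replicate 1 and 554 to 621 in the other 3, whereas the miR319 sum is highest in IFC replicate 2.

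Within miR159, the ratio of miR159c to miR159a was 2.27 and 2.34 in CFC and 2.61 and 4.01 in IFC. The groups did not overlap, by a gap that is small beside the spread of the IFC libraries (log2 difference 0.49, exact permutation test, two-sided, p = 0.333, the smallest value possible). This ratio was singled out after its values were seen.

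The 5p arm of a miR159 hairpin is usually discarded. The 5p reads of miR159c and miR159a, which the table lists with hairpins on chromosome 8 and not with those shown for the guides, had another order of libraries than the guides. miR159c-5p had an NE of 70.3 and 43.9 in CFC and 30.9 and 113 in IFC, and miR159a-5p of 35.5 and 127 in CFC and 68.7 and 91.2 in IFC. Both overlapped between the groups. The summed guides over the summed 5p reads was 20.1 in CFC replicate 1 and 3.25, 6.22 and 3.04 in CFC replicate 2, IFC replicate 1 and IFC replicate 2, so CFC replicate 1 stood apart in this ratio too. The miR159a guide was 18.2 times miR159a-5p there and 1.31 to 2.49 times in the other 3 libraries. As these reads are listed with other hairpins, the ratios compare names and not the arms of 1 precursor.

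Among 139 miRNAs outside the family, the profile over the 4 libraries most like that of the summed guides was that of zma-miR156k-5p_L+1, with an NE of 6.45, 0.879, 1.15 and 2.09 in the same order and a root mean square distance of 0.229 in log2 units (median 0.915). Only in CFC replicate 1 was this miRNA above the level of 3 reads. The next 3, zma-miR167j-3p_L+1, zma-miR169p-3p and zma-miR169r-3p, were listed at 1.43 in CFC replicate 1 and at 0 elsewhere, below the level of 3 reads. The fifth, zma-miR167a-5p, had an NE of 34.7, 7.53, 14.2 and 13.1. Likeness over 4 libraries is a description only.

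The 4 MYB genes were selected by their lines in the degradome table, so all of them have tags at a miR159 site by rule. Signal is given as TPB, the tags at a position relative to all raw reads sequenced, and 1 tag was worth 59.1 TPB in the IFC library and 59.9 in the CFC library. Tags were divided among the transcripts of a gene they matched, so they are given here added over transcripts. Each MYB gene had tags at 2 neighbouring positions. One lies opposite base 10 of the miR159c, miR159e and miR319 reads, and the other, 1 base downstream, opposite base 10 of miR159a and miR159h. They are called here the miR159c/miR319 register and the miR159a register. A tag does not show which guide made it, and the registered 21-base miR159c would cut in the miR159a register.

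GRMZM2G028054, annotated as myb domain protein 65, carried most of the signal. This gene, LOC100285651 on chromosome 8 in RefSeq, is listed with 3 transcripts. At position 1703, in the miR159c/miR319 register, it had 36 tags in IFC and 29 in CFC, or 709 and 580 TPB on each transcript. This was the highest peak of the transcript in both libraries (category 0 of CleaveLand, whose p-values over the miRNA names ran from 0.0110 to 0.0334). The ratio of IFC to CFC was 1.22 (95% interval 0.730 to 2.07, counting error only), so no difference was detectable at this depth. The site had more tags than 120 of the 132 gene sites, whose median was 2.71 tags in both libraries together. At position 1704, in the miR159a register, there were 9 tags in IFC and 12 in CFC, category 2 in both, and a ratio of 0.740 (0.275 to 1.91). CleaveLand p-values at this position ran from 0.818 to 0.863.

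AC217264.3_FGT005, annotated as myb domain protein 101, had its peak in the other register. At position 916, opposite base 10 of miR159a, it had 11 tags in IFC and 4 in CFC, or 650 and 240 TPB. It was category 0 in both libraries, with CleaveLand p-values of 0.0116 and 0.0119. The ratio of IFC to CFC was 2.71, with an interval of 0.804 to 11.7 that includes 1. Of the 60 gene sites with tags in both libraries, 30% differed by 2-fold or more, 13.3% with IFC higher and 16.7% with CFC higher. At position 915, the miR159c register, a single tag was found in CFC and none in IFC, where a count of 0 allows up to 3 tags or 177 TPB. The CFC tag was category 4, with CleaveLand p-values of 0.850 and 0.986. No miR319 name was listed for this gene.

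GRMZM2G004090, also annotated as myb domain protein 101, had 2 tags in IFC and 3.5 in CFC at position 1012, in the miR159a register (118 and 210 TPB). This was category 2 in IFC and category 0 in CFC. CleaveLand p-values there were 0.293 and 0.426 in IFC and 0.00343 and 0.00548 in CFC, for miR159a and miR159h in turn. At position 1011 there was 0.5 of a tag in CFC, a tag divided with another match, and none in IFC (CleaveLand p from 0.445 to 0.974). With so few tags the libraries cannot be ranked.

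GRMZM2G070523 is annotated as myb domain protein 101 and is named MYB129 in RefSeq, on chromosome 5. It had 1 tag in each register in IFC, divided over 3 transcripts, and none in CFC. A single tag is category 4, the weakest class, and CleaveLand p-values for this gene ran from 0.776 to 0.985. Of the 8 MYB gene sites, 3 reached category 0 in at least 1 library, beside 28% of all 132 gene sites.

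**Figure D4:**
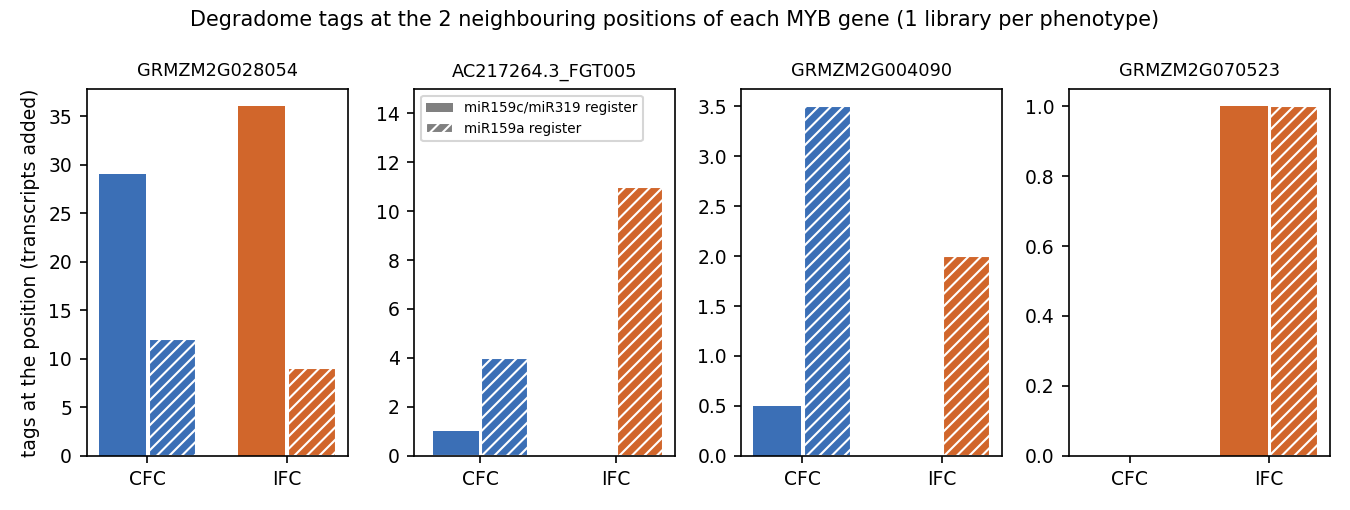
Degradome tags at the miR159c/miR319 register (plain bars) and the miR159a register (hatched bars) of the 4 MYB genes, in the CFC (blue) and IFC (orange) library. Each panel has its own tag axis. In GRMZM2G028054 the plain bars are the taller in both libraries (29 and 36 tags against 12 and 9), and in AC217264.3_FGT005 and GRMZM2G004090 the hatched bars are.

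Most tags of GRMZM2G028054 lay in the miR159c/miR319 register, and most of AC217264.3_FGT005 in the miR159a register. In GRMZM2G028054, 9 of 45 tags in IFC lay in the miR159a register, a share of 20.0% (Wilson 95% interval 10.9 to 33.8%), and 12 of 41 in CFC, or 29.3% (17.6 to 44.5%). These intervals overlap. In AC217264.3_FGT005 the share was 11 of 11 in IFC (100%, 74.1 to 100%) and 4 of 5 in CFC (80.0%, 37.6 to 96.4%). Within IFC the intervals of the 2 genes do not meet, and within CFC they do. With both libraries added, 24.4% (16.6 to 34.5%) of 86 tags in GRMZM2G028054 and 93.8% (71.7 to 98.9%) of 16 tags in AC217264.3_FGT005 lay in the miR159a register. In GRMZM2G004090 it was 5.5 of 6 tags. Tags are PCR products without molecular identifiers, and these intervals cover counting error only.

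The pairing scores differed between the genes as well. The alignment score adds penalties for mismatches, so that a lower score is a closer match. GRMZM2G028054 scored 2 with miR159c, 2 with zma-miR319a-3p_R+1 and tae-miR319, and 3 with miR159a. GRMZM2G004090 scored 2 with miR159c, 2.5 with miR159a and tae-miR319 and 3.5 with zma-miR319a-3p_R+1. AC217264.3_FGT005 and GRMZM2G070523 both scored 2 with miR159c and 4 with miR159a. AC217264.3_FGT005, with almost all its tags in the miR159a register, thus had its lower score with the miR159c read, over 19 bases against the 21 of miR159a. In the small RNA libraries, the guide that begins like miR159a supplied 11.6 and 5.07% of the miR159 and miR319 guide NE in CFC and 5.85 and 2.62% in IFC. This share rests on 1 listed read per name, and cannot be set directly against a share of tags.

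Added over both registers, GRMZM2G028054 had 45 tags in IFC and 41 in CFC, a ratio of 1.08 (0.693 to 1.69), and AC217264.3_FGT005 had 11 and 5, a ratio of 2.17 (0.695 to 7.97). All 4 MYB genes together had 60 tags in IFC and 50 in CFC, a ratio of 1.18. The median ratio over the 60 gene sites with tags in both libraries was 0.877.

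The TCP genes cut at the miR319 site were the nearest comparison, since all 3 were listed under miR319 and under miR159c at the same position. GRMZM2G020805 had 43 tags in IFC and 41 in CFC (ratio 1.03, 0.658 to 1.63). GRMZM2G015037, annotated as TCP family transcription factor 4, had 16 and 31 (0.509, 0.260 to 0.959), and GRMZM2G089361 had 8 and 20 (0.394, 0.150 to 0.935). All were category 0 in both libraries. Together they had 67 tags in IFC and 92 in CFC, a ratio of 0.718 (0.516 to 0.995, counting error only), although the ratios of the 3 genes differed. That interval includes 0.877, the median ratio over gene sites with tags in both libraries. The ratio of GRMZM2G028054 was 1.08, and its interval overlaps that of the 3 TCP genes together. Their scores with miR159c were 3.5 to 4, against 2 for each MYB gene, and with zma-miR319a-3p_R+1 1.5 to 3. With 1 library for each phenotype, no ratio here has a replicate check.

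**Figure D5:**
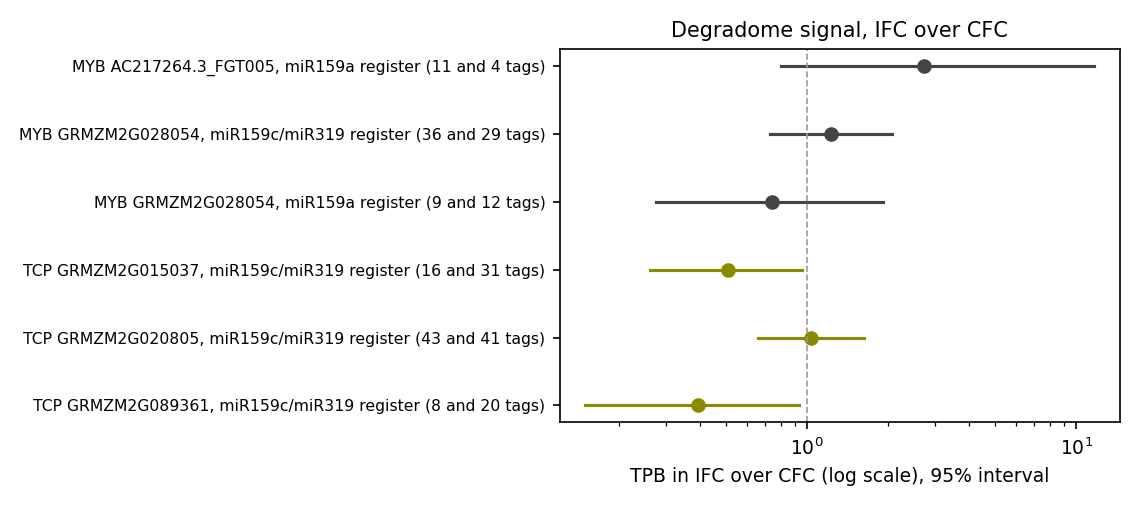
Ratio of TPB in IFC to TPB in CFC (log axis) with 95% exact conditional intervals of counting, for the MYB sites (dark) and TCP sites (olive) with whole tags in both libraries. Tags are given as IFC and CFC. The 3 MYB intervals include 1, as does that of GRMZM2G020805, and those of GRMZM2G015037 and GRMZM2G089361 end below 1.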

How the data were processed

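Small RNA libraries: the authors removed adapters, reads of structural RNAs, repeats and exons, aligned what was left against miRBase 21.0 using ACGT101-miR 4.2, and deposited NE, an RPM value. If the smallest step of NE is 1 read, NE was divided by 1394658 and 1138013 reads in CFC and by 873087 and 1194843 in IFC. The study gives larger totals of valid reads, so these are not the library depths, and read counts and limits of 3 reads rest on that reading. Between 66.3 and 73.8% of the values under 50 were whole multiples of the step, so no count test was run. Degradome: the authors ran CleaveLand 3.0.1 and deposited the signal as TPB, an alignment score, a category score from 0 to 4 and a p-value for each site and library. From the TPB of 1 tag, the libraries held 16915044 (IFC) and 16680835 (CFC) reads. No build is named for the genome or transcripts. RefSeq names come from assembly GCF_902167145.1 and matched 2 of the 4 MYB genes.

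Known miRNAs whose NE exceeded 1 in any library, 145 in all, were tested on log2(NE + 1) using limma 3.58.1 (R 4.3.3), IFC against CFC, two-sided, with no block and Benjamini-Hochberg adjustment over all of them at 0.05. The fit was run on simulated data whose planted differences were larger than those of the guides, so that run does not show that differences of their size can be detected. Sums and ratios were compared by exact permutation tests. A tag was taken as whole within 0.02. At gene sites with several transcripts, 64.6% of 79 signals were whole when added over the transcripts of a gene, against 17.7% per transcript. Ratios of tags have exact conditional intervals and shares have Wilson intervals at 95%. Python 3.11.15 with numpy 2.4.6, scipy 1.17.1 and matplotlib 3.10.9 served for the rest. The limma p-values weigh a difference against the spread between these libraries, moderated towards that over all miRNAs tested (13.7 prior degrees of freedom). CleaveLand p-values measure no spread between libraries. The members, the lists and the tests were chosen with earlier results of these data known. The genes and miRNAs named are all members by the rule, the miR319 guides, the 5p arms, the TCP genes and other genes listed under these names, and the 5 most alike profiles. A table that repeats part of the degradome lines was not used. A further gene listed under miR159c is not reported here.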

Additional observations from a re-analysis of the deposited data

How the results depend on the processing

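Over 14 results, 90 alternatives were computed, and 86 kept the direction, the side of the threshold and, for ratios and shares, the counting interval of the value reported. A pseudocount of 0.5 or 5, dropping the filter, raising it to an NE of 5, median-of-ratios scaling and a robust fit with a trend changed no call and no direction of a miR159 guide, except that miR159e drops out at an NE of 5 and has no value there. The log2 difference of osa-miR159c was -0.53 with the pseudocount of 5. At an unadjusted p under 0.05, 1 known miRNA in the fit reported became 4 with the pseudocount of 5 and 2 with the scaling. Leaving out each library in turn, limma's adjusted test called 0 known miRNAs each time, and at an unadjusted p under 0.05 the count ran from 0 to 24. The log2 difference of miR159c ran from -1.64 to 0.28 and reversed without CFC replicate 1, that of the sum ran from -1.77 to 0.16 and reversed likewise, that of miR159a ran from -2.15 to -0.18, that of osa-miR159c from -2.26 to -0.20, and that of the miR159 to miR319 ratio from -1.61 to -0.02. With the replicate number as a block, limma called 0 known miRNAs, 3 had an unadjusted p under 0.05 against 1 without it, and the difference of miR159c stayed at -0.68. Deviations of same-numbered libraries had an r of 0.25 over 145 miRNAs in 2 pairs, which does not show that the numbers pair the samples. The IFC library alone placed 100% of the tags of AC217264.3_FGT005 and 100% of those of GRMZM2G004090 in the miR159a register, against 93.8 and 91.7% with both libraries. The tags of these genes in the other register, 1 tag and 0.5 of a tag, were in CFC alone. Adding neighbouring positions took the ratio of GRMZM2G028054 from 1.22 to 1.08 and that of AC217264.3_FGT005 from 2.71 to 2.17.

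Depth limits the degradome values, since 5 of the 8 MYB gene sites have fewer than 6 tags in both libraries together. With 2 libraries a group, a difference in miR159 of the size seen cannot be told from the spread of CFC.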

Other observations

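Besides MYB and TCP genes, further genes were listed under miR159 names, and those given here had few tags. GRMZM2G041312, annotated as a homolog of yeast sucrose nonfermenting 4, had 0 tags in IFC and 2 in CFC at the miR159h site, and these 2 were the highest peak of its transcript. GRMZM2G127720 had 1 and 0 tags, and GRMZM2G016671, a protein kinase, 1 and 1, all category 4. GRMZM2G107595 and GRMZM2G076415, listed under miR159c-5p, had 0 tags in IFC and 0.4 and 0.667 of a tag in CFC.

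The most heavily tagged site of a miR319 name, in GRMZM2G412073, was listed under no miR159 name and had 122 tags in IFC and 132 in CFC (ratio 0.911, 95% interval 0.707 to 1.17, counting error only).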
